A study of Mus musculus with 9 samples.

Results

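Of 117465 accessible regions in mouse blood stem and progenitor cells, 6807 lay away from the ends of protein-coding genes and had a peak in each of the 9 libraries of the series. They are called distal constitutive regions, or members, in what follows. They were found by merging peaks of the 9 lists that overlapped by at least 1 bp, keeping merged regions with a peak in all 9 lists, and then keeping those more than 1 kb from both ends of every protein-coding gene on chromosomes 1 to 19 (20665 genes). They were thus chosen by the presence of a peak, which a weak region can lack in a short list, and their constancy is no finding. Of the 13908 regions with a peak in all 9 lists, the other 7101 lay within 1 kb of a gene end and served for comparison, as did the 78633 regions away from gene ends that had a peak in 2 or more lists.

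The assay was ATAC-seq, in which the transposase Tn5 cuts open chromatin and tags it for sequencing. MPPs (multipotent progenitors) and LT-HSCs (long-term haematopoietic stem cells) were sorted from bone marrow of C57BL/6 mice. There were 2 MPP KO, 2 MPP WT, 3 LT-HSC KO and 2 LT-HSC WT libraries, numbered as in the labels (KO 1 and 2 and WT 1 and 2 in MPPs, KO 1, 2 and 4 and WT 2 and 3 in LT-HSCs). KO cells were RXRα/RXRβ-KO and WT cells were wild type, and the sources used here give neither age nor the driver of the deletion. Cells came from pooled animals, and nothing says that libraries of a group came from separate pools, so p-values reflect spread among these libraries that may be technical only.

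Distal accessible regions commonly hold enhancers, insulators or promoters of noncoding RNAs, while regions at gene ends are mostly promoters. Enhancers bind cell-type-specific factors and tend to be used in few cell types, whereas CpG-rich promoters and binding sites of the insulator protein CTCF are open in most. Retinoid X receptors (RXRs) are nuclear receptors that bind DNA, usually as partners of other nuclear receptors, and many of their sites lie in enhancers.

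The lists held 78189 to 86353 peaks in MPPs and 22690 to 71586 in LT-HSCs, and the read depth behind them is unknown. To make strengths comparable, the strongest peak of each region by −log10 q (the authors' peak caller's significance) was ranked within each library among the 13908 shared regions, from percentile 0 (weakest) to 100 (strongest). Over the 6807 members, percentiles of any 2 MPP libraries correlated at 0.957 to 0.981. LT-HSC KO 4, WT 2 and WT 3 correlated with each other at 0.775 to 0.891 and LT-HSC KO 1 with KO 2 at 0.825, but KO 1 and KO 2 correlated with the other 3 LT-HSC libraries at only 0.414 to 0.538. LT-HSC KO 1 and KO 2 therefore stand apart from the other LT-HSC libraries. The number of members and the counts called by cell type and by genotype are given with and without them. These correlations are descriptions across regions of shared libraries.

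The label "away from gene ends" held for the outer ends of genes but not for every transcription start. RefSeq start windows (250 bases before to 50 after an annotated start, build GRCm38.p6) exist for alternative starts inside genes and for long noncoding RNAs (lncRNAs) too. Of the 6807 members, 944 (13.9%) overlapped such a window, against 3.26% of all regions away from gene ends and 75.7% of the constitutive regions at gene ends. Starts of protein-coding transcripts made up 660 (9.70%, against 1.81%) and starts of lncRNAs 336 (4.94%, against 1.57%), and some regions had both. A further 16 members (0.235%, against 0.223%) lay within 1 kb of a miRNA and 90 (1.32%, against 1.16%) within 1 kb of a pseudogene. Members inside a gene numbered 3876 (56.9%, against 54.1%).

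The start windows of 5 members are shown because they span the range of what follows, the first pair among the strongest members in every library, the third stronger in MPPs and the last pair weaker in MPPs. Each is the RefSeq sequence of GRCm38.p6, read 5′ to 3′ on its own strand, with each CpG (the letters CG) in capitals. Rps6ka2 lies at chr17:7169865-7170164 on the plus strand, Chaserr at chr7:73558346-73558645, Gm33448 at chr6:100163275-100163574, Clcn3 at chr8:60954750-60955049 and Gm39767 at chr2:21964118-21964417, the last 4 on the minus strand.
Rps6ka2: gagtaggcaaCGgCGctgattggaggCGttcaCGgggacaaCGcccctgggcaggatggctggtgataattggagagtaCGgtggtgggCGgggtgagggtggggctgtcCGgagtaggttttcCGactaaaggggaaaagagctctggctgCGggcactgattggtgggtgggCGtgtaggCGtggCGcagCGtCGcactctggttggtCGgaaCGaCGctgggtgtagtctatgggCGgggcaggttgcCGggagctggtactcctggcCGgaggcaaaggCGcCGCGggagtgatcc
Chaserr: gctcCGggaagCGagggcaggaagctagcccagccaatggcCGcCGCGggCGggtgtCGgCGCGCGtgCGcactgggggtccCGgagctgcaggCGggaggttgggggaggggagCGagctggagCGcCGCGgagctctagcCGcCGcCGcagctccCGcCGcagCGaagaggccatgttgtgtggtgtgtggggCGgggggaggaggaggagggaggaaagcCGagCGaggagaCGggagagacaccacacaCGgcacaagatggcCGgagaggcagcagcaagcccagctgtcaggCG
Gm33448: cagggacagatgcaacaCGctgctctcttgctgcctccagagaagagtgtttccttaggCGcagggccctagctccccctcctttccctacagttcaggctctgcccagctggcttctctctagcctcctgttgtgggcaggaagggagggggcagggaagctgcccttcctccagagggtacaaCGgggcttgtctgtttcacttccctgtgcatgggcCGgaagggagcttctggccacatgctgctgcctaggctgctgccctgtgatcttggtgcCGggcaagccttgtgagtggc
Clcn3: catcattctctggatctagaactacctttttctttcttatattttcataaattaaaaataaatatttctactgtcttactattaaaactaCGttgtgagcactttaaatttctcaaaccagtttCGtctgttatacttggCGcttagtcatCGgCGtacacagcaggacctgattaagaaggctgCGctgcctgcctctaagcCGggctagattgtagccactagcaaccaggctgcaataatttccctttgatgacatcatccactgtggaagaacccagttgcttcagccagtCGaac
Gm39767: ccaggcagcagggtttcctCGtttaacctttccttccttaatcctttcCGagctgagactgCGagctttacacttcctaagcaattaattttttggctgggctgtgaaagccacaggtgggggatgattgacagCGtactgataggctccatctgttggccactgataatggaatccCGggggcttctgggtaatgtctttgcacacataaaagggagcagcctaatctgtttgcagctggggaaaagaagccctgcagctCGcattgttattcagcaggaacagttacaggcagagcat

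The Rps6ka2 window, an internal start of the gene of a ribosomal S6 kinase, held 24 CpGs and that of Chaserr, a lncRNA that restrains its neighbour Chd2, held 30. The windows of the lncRNA Gm33448, of Clcn3 (an endosomal chloride transporter) and of the lncRNA Gm39767 held 5, 8 and 6. The Gm33448 region, 64.8 kb from Rybp, averaged percentile 91.7 in MPPs and 32.1 in LT-HSCs, and the Gm39767 region averaged 12.6 in MPPs and 79.3 in LT-HSCs, on the scale explained above.

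Over all 1151 start windows that members overlapped, the median was 18 CpGs, against 23 in windows of constitutive regions at gene ends and 7 in all 31396 windows of the reference. Member windows ran from a median of 25 CpGs in regions that were higher in MPPs, through 18 in regions not called, to 11 in regions lower in MPPs (the calls are described further on). The GC box GGGCGG, the core of SP1-type sites, was found on either strand in 57.3% of member windows, against 71.7% at gene ends and 36.0% of all windows. The ETS core CCGGAAG was in 13.0% of member windows, 23.4% at gene ends and 9.0% of all windows, and was more frequent in windows of regions not called (15.4%) than in those higher (8.62%) or lower (4.26%) in MPPs. The sequence AGGTCA, to which nuclear receptors bind, was in 12.1% of member windows, 10.5% at gene ends and 16.3% of all windows. The GC box and the ETS core each contain a CpG, so their shares can depend on CpG content. From regions higher in MPPs through those not called to those lower, the GC box share fell with the CpG count (69.0%, 57.5% and 41.1%). Across the same sets the ETS share did not follow the CpG count. A match of letters is not a binding site.

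CpG content also went with where a region stood in each library. The 531 members whose richest window had more than 15 CpGs had median percentiles of 59.5 to 62.6 in MPPs and 48.1 to 62.3 in LT-HSCs. Those with 5 or fewer CpGs (140 members) had medians of 35.0 to 38.0 in MPPs and 38.1 to 50.5 in LT-HSCs. In LT-HSC KO 4 the CpG-poor members had the higher median (50.5, against 48.1 for the CpG-rich members), and in the other 8 libraries the lower.

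Among the members at noncoding RNAs, Mir210 and Mir23a are shown because their roles in blood and hypoxia are known. The mature sequences are RefSeq's, with the seed (bases 2 to 8) in capitals.
mmu-miR-210-3p: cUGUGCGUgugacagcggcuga
mmu-miR-23a-3p: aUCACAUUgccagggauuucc

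The seeds, UGUGCGU and UCACAUU, differ. Mir210, a hypoxia-induced miRNA, lay 127 bp from a member at chr7:141221620-141222308. That region stood at percentiles 94.8 and 96.3 in MPP KO and 91.2 and 94.5 in MPP WT, and at 74.8, 80.2 and 89.1 in LT-HSC KO and 96.7 and 95.6 in LT-HSC WT. It was thus among the strong regions in every library, lowest in LT-HSC KO 1 and KO 2. The member 327 bp from Mir23a, which acts in myeloid and lymphoid fate, ranged from 58.7 to 68.7 in MPPs and from 16.0 to 75.4 in LT-HSCs.

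Distal members stood lower than gene-end regions in every library, and the gap was narrower in each LT-HSC library than in each MPP library. Their median percentile among shared regions was 33.1 to 35.3 in MPPs and 36.3 to 47.0 in LT-HSCs, against 64.2 to 66.3 in MPPs and 53.2 to 63.7 in LT-HSCs for constitutive regions at gene ends. In the full lists the members' median percentile was 83.2 to 86.3 in MPPs and 55.8 to 88.3 in LT-HSCs, where the shortest lists give the lowest values. Members held 12.6% to 14.8% of the 1000 strongest peaks in MPPs and 15.1% to 30.9% in LT-HSCs, with the highest share in LT-HSC KO 4. Of the 5000 strongest they held 22.5% to 26.2% in MPPs and 28.4% to 40.5% in LT-HSCs.

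**Figure D1:**
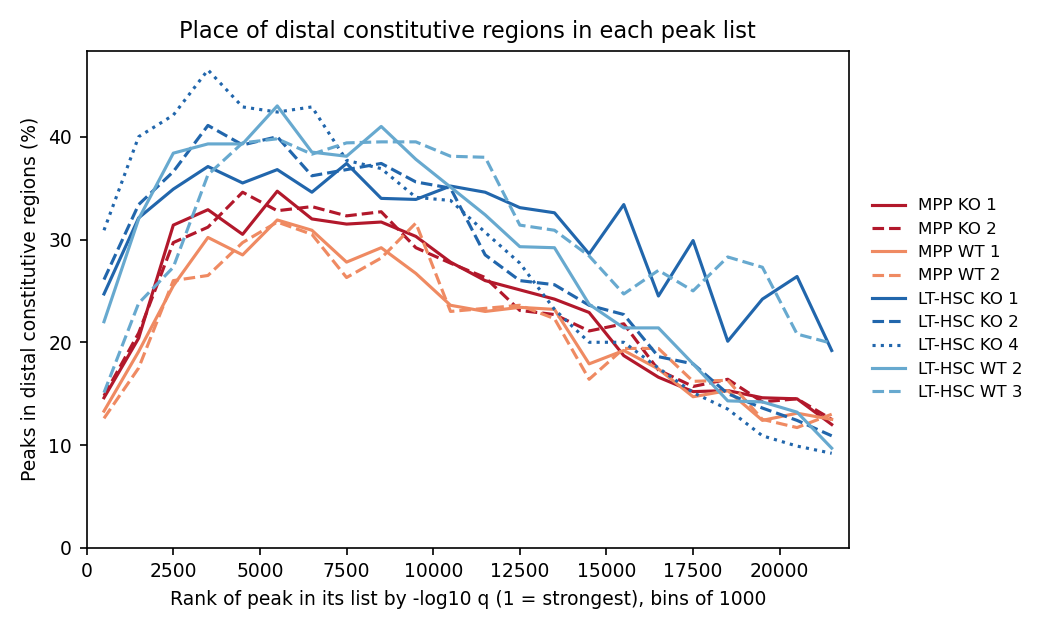
Share of peaks that lie in distal constitutive regions (y axis, percent) by the rank of the peak in its own list (x axis, bins of 1000 peaks, strongest at the left), one line per library. In the first bin the 4 MPP libraries held 12.6% to 14.8% and the 5 LT-HSC libraries 15.1% to 30.9%. The highest share of a bin was 31.7% to 34.7% in MPPs and 37.4% to 46.5% in LT-HSCs, in bins centred on ranks 3500 to 7500.

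Members were wider than other distal regions, with a median of 580 bp against 363 bp for those in 2 to 8 lists and 740 bp for constitutive regions at gene ends; merging peaks of more lists widens a region by itself. Their median distance to the nearest gene end was 17301 bp, against 19571 bp for distal regions in 2 to 8 lists. Just past the distance limit, the 148 members up to 200 bp beyond it had a median of mean percentiles of 40.9, and the 144 regions up to 200 bp short of it, which are no members, had 38.3. Just short of presence in all lists were 6126 distal regions in 8 lists, of which 3256 lacked a peak in LT-HSC KO 1 and 2610 in LT-HSC WT 3, the 2 shortest lists, and 0 to 97 in each of the others. Membership is therefore set largely by those 2 lists.

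A constant peak was not a constant strength. The range of a member's 9 percentiles had a median of 44.3 points, 2674 members (39.3%) ranged over 50 points or more and 71 (1.04%) over 10 or fewer. Among those 71, the median of mean percentiles was 89.8, the lower quartile was 8.38, and 26.8% overlapped a start window.

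The strongest members are described by their levels alone, since a mean near the top of the scale leaves little room to vary. The highest mean percentile, 98.9, was that of a region inside Zfp574, a zinc finger gene, at chr7:25076757-25077467 and only 1063 bp from the gene end. It stood at 99.4 and 99.5 in MPP KO and 99.6 and 99.7 in MPP WT, and at 96.3, 96.1 and 99.6 in LT-HSC KO and 99.7 and 99.8 in LT-HSC WT. The next were the internal start of Rps6ka2 shown above (98.5), a region inside Arhgap26, a GTPase-activating protein gene (98.4), and regions in Zfp446 (98.3) and Chd2 (98.1). The sixth was the start of the lncRNA 1700096K18Rik, 11.3 kb from Cct8l1 (97.7).

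At lncRNA starts, Chaserr (mean percentile 97.6) followed 1700096K18Rik. 1700028E10Rik inside Stard13 (97.0), 1700003G18Rik inside 1110004F10Rik (95.8) and Gm52285 inside Srrm2 (95.0) came next. Chaserr stood at 99.0 and 99.3 in MPP KO and 99.1 and 99.2 in MPP WT, and at 96.8, 91.5 and 97.8 in LT-HSC KO and 98.8 and 97.2 in LT-HSC WT.

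In gene deserts, 427 members (6.27%, against 7.75% of all distal regions) had no protein-coding gene within 100 kb. Of these, 41 (9.6%) were higher and 145 (34.0%) lower in MPPs by the test given further on, against 11.8% and 23.4% of all members and 15.3% and 15.4% of all regions tested. The difference from other members was not tested. The 4 strongest included a region on chromosome 3 (5860261 to 5860919) and one on chromosome 17 (39843106 to 39846752), both at percentile 100 in all 4 MPP libraries. The chromosome 17 region overlaps Rn18s-rs5, a pseudogene related to ribosomal RNA, and at 3647 bp it was the widest member. Reads of repeated ribosomal DNA cannot be placed with certainty, so its strength is uncertain.

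Members were spread thinly over genes. By the gene that contains the region's midpoint, or else by the nearest end of a gene up to 100 kb away, 4241 of 20665 genes (20.5%) had at least 1 member, 2923 of them exactly 1, and 76 had 5 or more. Genes with 5 or more were long, with a median of 192 kb, against 43.7 kb for all genes with members and 17.5 kb for all genes. Pde4d, encoding a phosphodiesterase that breaks down cAMP, had most, 13 of its 78 distal regions over 1302 kb. Gse1 had 12 of 73, Prkag2, a regulatory subunit of the energy sensor AMPK, 10 of 36, and Chd9, a chromatin remodeller, 9 of 32. Nfia, a transcription factor of the nuclear factor I family with a role in erythroid and granulocytic fate, had 9 of 56, and Wwox, an oxidoreductase gene that spans a fragile site, 9 of 53.

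The leading 12 were chosen by their number of members, so a gene with few distal regions has a large share by that choice. Rsbn1l (65.7 kb) had 7 of 11 (63.6%), Snx30, a sorting nexin gene (99.6 kb), 7 of 20 (35.0%), and Chd2, a chromatin remodeller gene (115 kb), 7 of 21 (33.3%). Usp6nl, encoding a Rab GTPase-activating protein, had 8 of 27 (29.6%), while Akap13, which anchors protein kinase A, had 8 of 44, and Prkce, protein kinase C epsilon, 8 of 47. Over all genes, members were 8.80% of the distal regions. Counts follow gene length as well as constancy, and with regions given to the nearest gene end only, 6 of these 12 genes stayed among the leading 12.

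Chd2 had the strongest members of the 12 genes. The median of its mean percentiles was 80.5, against 28.6 to 45.8 in the other 11. Its intragenic region at chr7:73537599-73538232 stood at 98.8 and 98.3 in MPP KO and 98.2 and 98.5 in MPP WT, and at 97.3, 95.0 and 98.6 in LT-HSC KO and 99.2 and 99.0 in LT-HSC WT. Beyond the Chaserr start, the member at 73595085 averaged 96.8 in MPPs and 97.8 in LT-HSCs, and the one at 73617922 averaged 91.0 in MPPs and 72.1 in LT-HSCs, a called difference. Elsewhere the strongest members were inside Chd9 (mean percentile 85.3), Nfia (81.7), Rsbn1l (81.3) and Pde4d (74.3), none of them called between cell types.

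**Figure D2:**
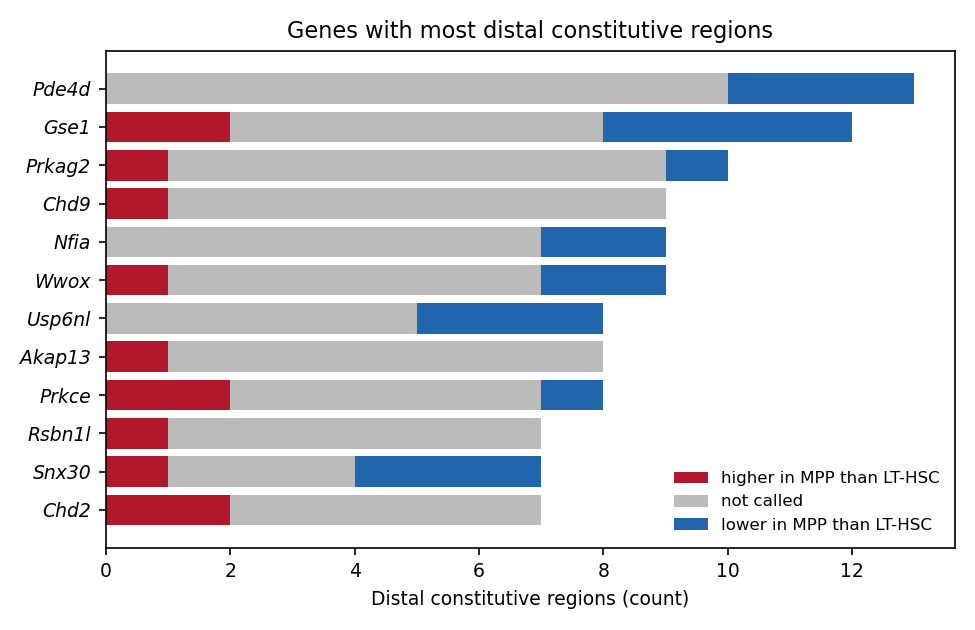
The 12 genes with most distal constitutive regions (y axis) and the number of such regions (x axis), divided into regions higher in MPPs than in LT-HSCs, not called, and lower in MPPs. Pde4d had 0 higher and 3 lower of 13, Gse1 had 2 and 4 of 12, and Chd2 had 2 and 0 of 7.

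The members of one gene did not move as a block. Gse1 had 2 members higher and 4 lower in MPPs, Prkce 2 higher and 1 lower, and Wwox 1 higher and 2 lower. Within Wwox, encoded over 913 kb, a member downstream of the gene at 115414054 averaged 76.0 in MPPs and 14.7 in LT-HSCs. A member inside the gene at 114879623 averaged 23.9 in MPPs and 67.2 in LT-HSCs. Members higher in MPPs numbered 1 of 9 in Chd9, 1 of 8 in Akap13, 1 of 7 in Rsbn1l and 2 of 7 in Chd2, with none lower. Members lower in MPPs numbered 3 of 13 in Pde4d, 2 of 9 in Nfia and 3 of 8 in Usp6nl, with none higher. Over all members 11.8% were higher and 23.4% lower (15.3% and 15.4% of all regions tested). No gene was tested against these shares.

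Members lay in runs at some genes. With gaps of at most 15 kb, 1555 members (22.8%) lay in clusters of 2 or more, and 114 clusters had 3 or more. The largest had 6 members each. One spanned 35.7 kb at Rsbn1l and the other 37.1 kb at Tnfaip8, a regulator of apoptosis. Clusters of 5 lay at Actb and Fbxl18 (mean percentile 56.3), at Cfap45 and Tagln2 (57.0), and at 4 other places.

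Members tended to stand lower in MPPs than in LT-HSCs, relative to gene-end regions. By limma over all 13908 shared regions (Benjamini-Hochberg adjusted p under 0.05), 802 members (11.8%) were higher in MPPs, where 15.3% of all regions tested were. Another 1593 (23.4%) were lower in MPPs, where 15.4% of all regions were. Of the 7101 regions at gene ends, 1329 (18.7%) were higher and 543 (7.65%) lower. Percentiles sum to a constant within a library, so a shift of the gene-end regions one way is a shift of the members the other way.

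When members were ranked among members alone, the numbers were 1294 higher in MPPs and 1318 lower, where 15.9% of all regions were called in each direction. This ranking centres the members within each library, so it fixes a near-even balance and does not locate the excess. Of the calls among all shared regions, 792 of the 802 and 1303 of the 1593 were also made in that ranking.

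Without LT-HSC KO 1 and KO 2, the LT-HSC KO group holds 1 library and has no spread of its own. In that fit calls were more numerous. Then 1398 members were higher in MPPs (background 28.9%) and 2606 lower (background 26.9%), and these included 794 and 1571 of the calls made with all libraries. Without LT-HSC KO 4, 1509 members were higher in MPPs, where 3958 of all 13908 regions were, and 2357 were lower, where 3588 were. The number of members called in either direction was then 3866 in place of 2395 (56.8% of members, against 54.3% of all regions). Without single MPP libraries it was 1334 to 1370 (19.6% to 20.1% of members, against 15.1% to 16.2% of all regions).

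Of the 944 members at start windows, 142 (15.04%) were higher and 128 (13.56%) lower in MPPs. Of the 3146 inside a gene with no start window, 356 (11.32%) were higher and 811 (25.78%) lower. Of the 2717 between genes, 304 (11.19%) were higher and 654 (24.07%) lower. Of all 13908 regions tested, 15.3% were higher and 15.4% lower. Members at start windows were thus near the shares of all regions in both directions. Members of the other classes were less often higher and more often lower. The difference between these classes was not tested.

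**Figure D3:**
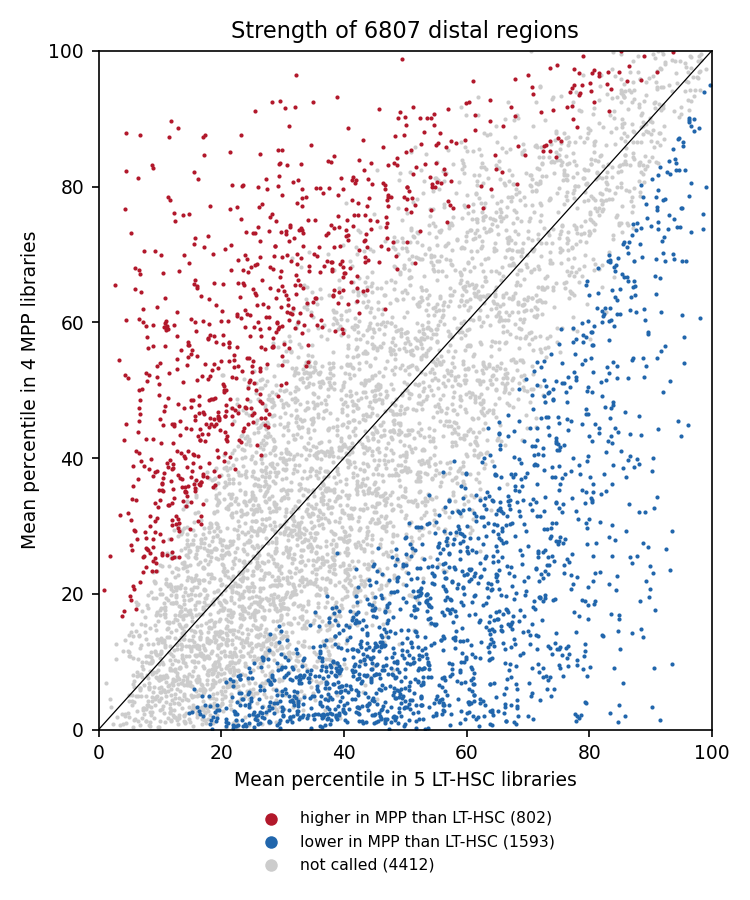
Mean percentile of each of the 6807 distal constitutive regions in 4 MPP libraries (y axis) and 5 LT-HSC libraries (x axis), each point 1 region, with the line of equality. The 802 regions higher in MPPs lie above the line, the 1593 lower in MPPs below it, and the others were not called.

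The widest gap in favour of MPPs was 63.4 kb from Cebpb, which encodes a transcription factor of granulocyte and macrophage differentiation. The region, chr2:167753823-167754466, stood at 83.0 and 88.0 in MPP KO and 90.9 and 89.4 in MPP WT, and at 3.3, 1.1 and 7.9 in LT-HSC KO and 7.1 and 2.8 in LT-HSC WT. The difference, MPP minus LT-HSC, was 83.3 ± 5.64 points (SE, limma adjusted p = 0.000196). All MPP libraries lay far above all LT-HSC libraries.

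The next region, inside Ampd3, an AMP deaminase gene, averaged 87.5 in MPPs and 6.7 in LT-HSCs, a difference of 80.7 ± 5.93 points. A region inside Il17ra, a subunit of the interleukin-17 receptor, averaged 89.7 in MPPs and 11.7 in LT-HSCs, a difference of 77.9 points that was 30.7 points when fold enrichment was ranked in place of −log10 q. The others were in Arhgap26, 78.5 kb from Cd93 (a lectin-like receptor of progenitors and endothelium), 5.20 kb from Il2ra (the alpha chain of the interleukin-2 receptor), 70.9 kb from Trib1 (a pseudokinase that promotes degradation of C/EBPα) and in Lrrfip1. Their differences ran from 73.6 to 77.4 points, with each MPP library above every LT-HSC library.

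In the opposite direction the widest gap lay inside Gm52806, a predicted gene, at chr5:20778272-20778996. It stood at 1.5 and 3.2 in MPP KO and 0.7 and 0.4 in MPP WT, and at 95.9, 96.1 and 90.7 in LT-HSC KO and 85.9 and 88.7 in LT-HSC WT. The difference was −89.4 ± 5.77 points (SE, limma adjusted p = 0.000196). The region was among the weakest shared regions in MPPs and among the strongest in LT-HSCs, although all 9 libraries had a peak there.

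Dhrs3 encodes a retinaldehyde reductase, an enzyme that limits retinoic acid by returning its precursor to retinol. The member inside it, chr4:144898241-144898720, stood at 4.2 and 3.8 in MPP KO and 3.6 and 3.1 in MPP WT, and at 92.5, 88.9 and 78.0 in LT-HSC KO and 91.1 and 73.9 in LT-HSC WT. The difference was −80.8 ± 6.69 points (SE, limma adjusted p = 0.000196), and every MPP library lay below every LT-HSC library. KO and WT libraries overlapped in LT-HSCs.

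The others were in Trpc6, a cation channel gene (averages of 3.3 in MPPs and 90.3 in LT-HSCs), and Gypc, encoding glycophorin C of the red cell membrane (2.0 in MPPs and 85.8 in LT-HSCs). The internal start of Clcn3 shown above averaged 9.0 in MPPs and 90.6 in LT-HSCs. A region at the start of the lncRNA Gm32865 on chromosome 16 averaged 9.6 in MPPs and 93.5 in LT-HSCs, and one on chromosome 1, 363 kb from any protein-coding gene end, 2.4 in MPPs and 83.4 in LT-HSCs. These 15 regions remained called in the same direction under each of the alternatives tried.

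**Figure D4:**
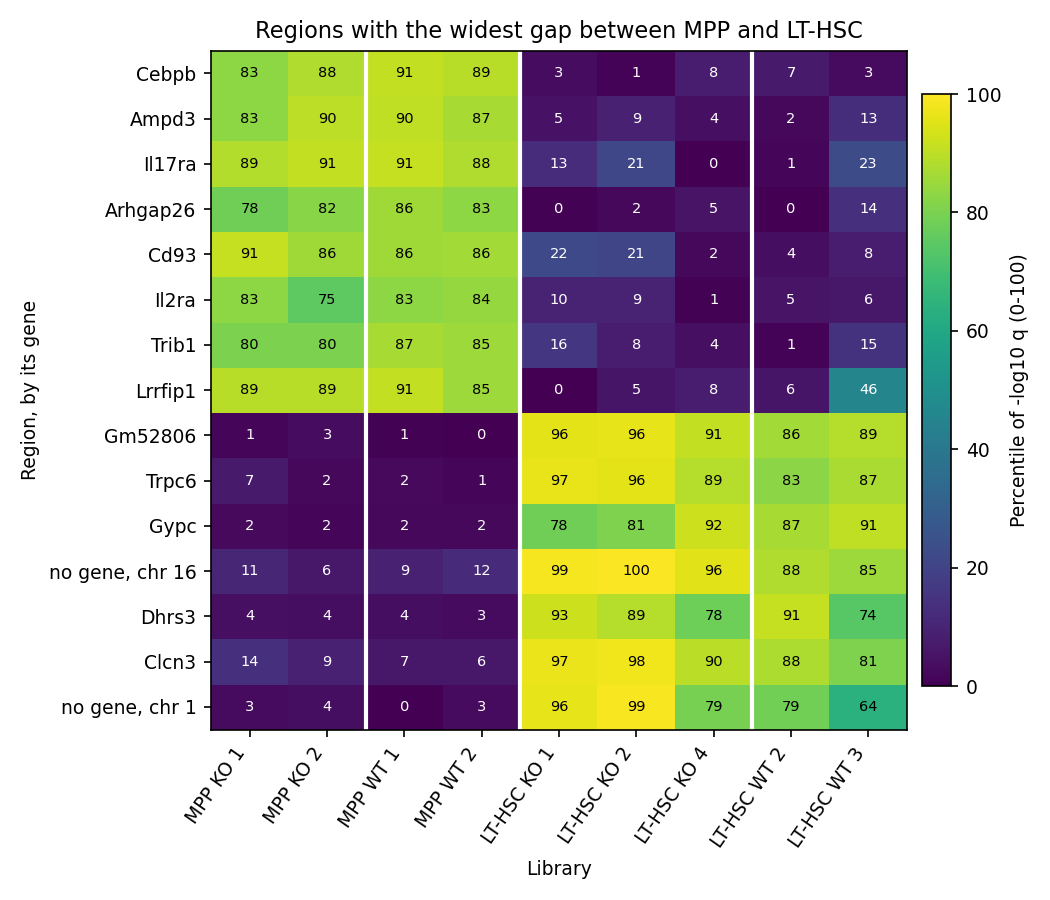
Percentiles (colour and number, 0 to 100) of 15 regions with the widest gaps between cell types (rows, named by gene) in each library (columns). The upper 8 rows stand at 75.1 or more in every MPP library and at 45.5 or less in every LT-HSC library, and the lower 7 rows at 13.9 or less in every MPP library and at 63.8 or more in every LT-HSC library.

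Genes known in blood stem cells were counted with lists chosen with earlier results known. Of 62 haematopoietic transcription factor genes, 41 had 103 members, which were 9.56% of their distal regions, against 8.80% over all genes. Of these members 16 were higher and 30 lower in MPPs. For this and the lists that follow, the shares over all members given to a gene were 11.9% higher and 22.7% lower, and no list was tested against them. Nfia had most, and Bcl11a, a factor of lymphoid development and globin switching, had 6, with 0 higher and 4 lower. A Bcl11a member 53.1 kb outside the gene, chr11:24226650-24227296, stood at 26.6 and 28.3 in MPP KO and 14.6 and 18.2 in MPP WT, and at 92.9, 93.4 and 92.7 in LT-HSC KO and 85.1 and 82.2 in LT-HSC WT. Etv6, an ETS factor, had 6 members, 1 of them higher.

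Of 34 surface and cytokine receptor genes 17 had 29 members, with 5 higher and 3 lower in MPPs. The Cd44 member 42.2 kb outside the gene averaged 91.7 in MPPs and 67.2 in LT-HSCs, and 2 of the 3 members at Ifnar1, a subunit of the type I interferon receptor, were higher in MPPs. Of 43 signalling and survival genes 36 had 88 members (10 higher, 14 lower), and of 21 cell cycle and MYC network genes 11 had 21 members (4 and 4).

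The chromatin list had 30 members in 10 of 23 genes, 4 higher and 11 lower in MPPs. Dnmt3a, the de novo DNA methyltransferase, had 5 members. The one at an internal start averaged 49.5 in MPPs and 26.2 in LT-HSCs (called higher), and 3 others inside the gene were lower in MPPs, such as the one at 3855643, with averages of 58.5 in MPPs and 80.3 in LT-HSCs. All 4 called members of Mbnl1, a splicing regulator, were lower in MPPs.

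Among 29 RXR partners and targets 15 had 24 members, 9.06% of their distal regions, with 1 higher and 7 lower in MPPs. Rarb, encoding retinoic acid receptor beta, had 4, of which 1 was lower in MPPs. That member stood at 83.1 and 78.2 in LT-HSC KO 1 and KO 2, against 45.6 in LT-HSC KO 4 and 14.7 and 21.2 in LT-HSC WT. Abca1, a cholesterol exporter gene regulated by RXR with liver X receptors, had 3 and none was called. Thrb, a thyroid hormone receptor gene, had 3 with 2 lower. Rxra had no member, Rxrb had a constitutive region only at its gene end, and Rxrg had 2 members outside the gene.

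Markers of other lineages had 5 members at 3 of 12 T cell genes, 2 at 2 of 10 B cell genes, 7 at 7 of 13 mature myeloid genes, 1 at 1 of 9 erythroid genes and 6 at 6 of 12 stromal and endothelial genes. Neuronal and hepatic control genes had 7 at 4 of 15. As shares of distal regions these ran from 2.33% (erythroid) to 11.7% (mature myeloid), against 8.80% over all genes. A member was present at 53.8% of the mature myeloid and 50% of the stromal and endothelial genes, against 20.5% of all genes. Of the distal regions of the stromal and endothelial genes, however, 4.8% were members, below the 8.80% over all genes. The median gene length of that list was 44.6 kb, against 17.5 kb for all genes. Peaks are not expression, and these counts do not check the sort.

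Between KO and WT, 1 member differed in the fit over all libraries. It was higher in KO and was the single region called in that direction among all those tested (0.00719%), and 0 members were lower (0.0% of all regions). Within MPPs 0 members were called (0.0%), within LT-HSCs 0 (0.0%), and 0 for the interaction of genotype with cell type. By limma's unadjusted p under 0.05, 638 members (9.37%) were higher and 155 (2.28%) lower in KO over both cell types, against 5.7% and 5.46% of all regions tested. In MPPs 72 were higher and 9 lower in KO (0.59% and 0.194% of all regions), and in LT-HSCs 1279 and 391 (13.3% and 12.4% of all regions), with 157 positive and 468 negative for the interaction (4.04% and 4.71%). When members were ranked among members alone, 413 were higher and 350 lower in KO over both cell types (5.7% and 4.77% of all regions) and 874 and 804 in LT-HSCs (12.9% and 11.7%). Such a ranking centres the members in each library. No other tool was run.

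The counts by genotype depended on the LT-HSC libraries entered. Without LT-HSC KO 1 and KO 2, 117 members were higher in KO (background 0.928%) and 58 lower (background 2.94%). Without LT-HSC KO 4, 1716 members (25.2%) were called in place of 1, where 26.2% of all regions were. Of these members 1104 were higher in KO, where 1808 of all 13908 regions were, and 612 lower, where 1835 were. The pooled share was thus near that of all regions, while the balance of directions was not.

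The called region lies inside Vav1, whose product is a guanine nucleotide exchange factor of blood cells, at chr17:57290095-57291229, 11.0 kb inside the gene. It stood at 99.4 and 99.1 in MPP KO, against 77.3 and 72.1 in MPP WT, and at 99.3, 99.8 and 100 in LT-HSC KO, against 87.1 and 86.1 in LT-HSC WT. The difference, KO minus WT, was 18.9 ± 1.90 points (SE, limma adjusted p = 0.0337). All 5 KO libraries lay above all 4 WT libraries. The call was lost when any single library other than LT-HSC KO 4 was left out, with differences of 17.5 to 20.2 points over all such fits. Ranked by fold enrichment in place of −log10 q, the same region did not separate, at percentiles 34.9 and 28.6 in MPP KO and 45.4 and 40.3 in MPP WT, and at 91.5, 90.2 and 39.3 in LT-HSC KO and 60.1 and 81.6 in LT-HSC WT. Its difference was then −4.17 points. With members ranked among members alone the difference was 8.54 points and was not called, and without LT-HSC KO 1 and KO 2 the region was called (limma adjusted p = 0.00386).

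Other Vav1 regions went the same way by −log10 q, with 1 exception. A member ending 1.89 kb before the gene, chr17:57276689-57277209, stood at 34.8 and 35.0 in MPP KO, against 7.2 and 10.8 in MPP WT, and at 67.1, 76.8 and 48.1 in LT-HSC KO, against 10.8 and 10.9 in LT-HSC WT (limma adjusted p = 0.369). The region at the gene end, which is no member, stood at 74.8 and 74.0 in MPP KO, against 36.6 and 36.3 in MPP WT, and at 67.2, 72.6 and 77.5 in LT-HSC KO, against 20.1 and 42.6 in LT-HSC WT. The member downstream of the gene, at 57335698 to 57336054, stood at 32.0 and 33.6 in MPP KO and 29.8 and 25.6 in MPP WT. In LT-HSCs it overlapped between genotypes, at 13.3, 25.9 and 30.0 in LT-HSC KO and 37.8 and 25.9 in LT-HSC WT. Regulatory sequence of Vav1 is commonly used to drive Cre recombinase in blood cells. The sources used here do not say whether these KO mice carry such a construct, and the part of extra copies in the result was not tested.

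The next genotype differences were not past the threshold in the fit over all libraries. Klf9, a Krüppel-like factor induced by nuclear receptors, had a member 5.04 kb from the gene that stood at 29.7 and 28.7 in MPP KO, against 66.0 and 67.5 in MPP WT, and at 4.8, 17.3 and 8.1 in LT-HSC KO, against 54.8 and 65.0 in LT-HSC WT. Its difference was −43.7 points (limma adjusted p = 0.193), and −44.7 points without LT-HSC KO 1 and KO 2. The KO libraries lay below the WT libraries in each cell type. A member at an internal start of Set, a histone chaperone gene, stood at 76.2 and 70.8 in MPP KO, against 79.1 and 93.0 in MPP WT, and at 12.6, 10.4 and 12.8 in LT-HSC KO, against 76.1 and 65.0 in LT-HSC WT. It and a member inside Gramd1b, a sterol transporter gene, had a limma adjusted p of 0.369. Their differences were −35.6 points at Set and −37.8 at Gramd1b. Without LT-HSC KO 1 and KO 2 these were −35.1 and −41.2, in a fit with 1 LT-HSC KO library.

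Within MPPs the smallest p among higher members after Vav1 was at Zfp831, at 87.4 and 86.8 in MPP KO, against 60.3 and 60.4 in MPP WT. This region stood at 95.9 or more in all LT-HSC libraries. The limma adjusted p within MPPs was 0.055 at Vav1 and Zfp831, and 1 at the next regions by the naming rule, inside Dlgap1 for a positive difference and at Klf9, Asb2 and Cspp1 for a negative one. Within LT-HSCs the limma adjusted p was 0.0574 at each of the 5 regions given next. A member 46.3 kb from Rhobtb1 stood at 68.3, 76.4 and 57.4 in LT-HSC KO, against 16.5 and 6.4 in LT-HSC WT, and one inside Adgrl4, an adhesion receptor gene of endothelium, at 69.9, 63.3 and 59.0 in LT-HSC KO, against 17.6 and 22.0 in LT-HSC WT. Negative differences were at Set, at a member inside Kank3 (13.4, 6.1 and 23.6 in LT-HSC KO, against 73.2 and 78.1 in LT-HSC WT) and at one inside Actb, the beta-actin gene. The Actb member stood at 14.4, 16.0 and 0.9 in LT-HSC KO, against 65.5 and 76.5 in LT-HSC WT, and at 81.5 and 82.2 in MPP KO, against 88.5 and 92.3 in MPP WT.

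**Figure D5:**
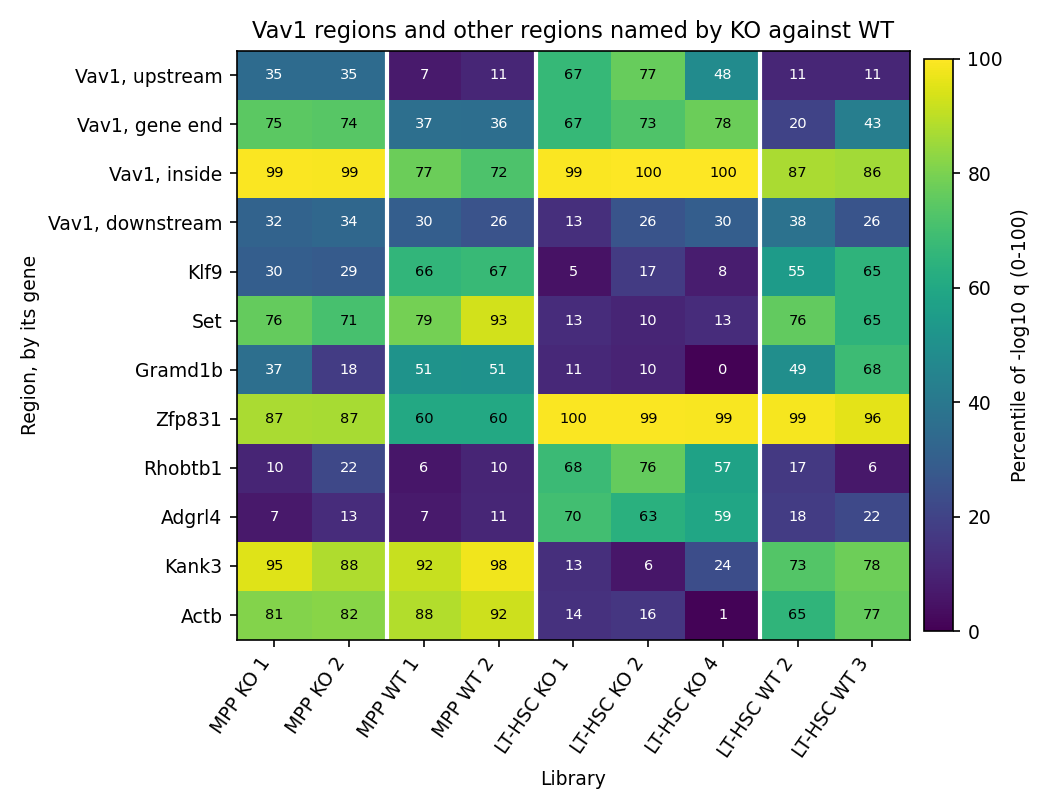
Percentiles (colour and number, 0 to 100) of the 4 constitutive Vav1 regions, of which the one at the gene end is no member, and of the other regions named for KO against WT (rows) in each library (columns). The Vav1 region inside the gene stands at 99.1 to 100 in the KO libraries and at 72.1 to 87.1 in the WT libraries.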

How the data were processed

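ATAC-seq peak lists of 9 libraries were used, 1 per library, called separately. Peaks were called with MACS2 2.1.1 on mm10, per the submitters' processing notes. These also list, with no roles, HOMER 4.10.3, SAMtools 0.1.18, cutadapt 1.7, Bowtie2, FastQC, edgeR 3.20.9 and DiffBind 2.6.6, and the sources used here do not give Tn5 shifting or duplicate handling. The deposited values ranked were the authors' −log10 of the q-value (column 9, at least 1.30) and, as an alternative, the deposited fold enrichment, a ratio over background (column 7). Neither is a count, so no count test was run and depth is unknown.

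Peaks of chromosomes 1 to 19 were merged at 1 bp of overlap. Gene ends, names and start windows came from RefSeq tables of GRCm38.p6, whose chromosomes are those of mm10. Each region was represented by its strongest peak and turned into a percentile within each library among the 13908 regions with a peak in all 9 lists. Percentiles were fitted with limma 3.58.1 (R 4.3.3; lmFit, eBayes with trend) as 4 group means with 5 residual degrees of freedom, and p-values were adjusted by Benjamini-Hochberg over all 13908 regions. In simulated percentiles with 200 of 13908 regions shifted between cell types, the fit called 65.5% of the shifted regions and 0 of the others. Noise was drawn independently for each library, so the simulation lacked the split of LT-HSC KO 1 and KO 2 from the other LT-HSC libraries. Tables were made with Python 3.11.15 and pandas 2.3.3.

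The rule named the 12 genes with most members, the 3 with most members per list, the 8 called members with the widest cell type gap in each direction, up to 5 called members per genotype contrast and direction (the 3 of smallest p where none was called), and the 6 strongest members and noncoding RNA neighbours. The members, the 12 gene lists (285 entries, 283 in the reference) and these rules were chosen with earlier results of these data known. Chromosome X was not analysed here, and 2 of the regions that the rule names are not reported here.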

Additional observations from a re-analysis of the deposited data

How the results depend on the processing

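The number of distal constitutive regions was 5408 at more than 5 kb from gene ends, 5850 with peaks at a q of 1e-05 or lower, 6806 with 100 bp of overlap to merge, and 6807 to 10063 when a peak was asked of 8 lists only; leaving out both LT-HSC KO 1 and KO 2, an alternative chosen after seeing the data like each other use of that setting, gave 11545.

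Cell type calls over both directions numbered 5104 with only LT-HSC KO 4 and WT 2 of the LT-HSC libraries, 4004 without LT-HSC KO 1 and KO 2, and 4081 when members were also ranked among members. Members higher in MPPs numbered 1839, 1398 and 2099 in these fits, and 1294 with members ranked among members alone; members lower in MPPs numbered 3265, 2606 and 1982 in the first 3, so the third had more higher than lower. Leaving out single libraries gave 1334 to 3866 calls in all, 408 to 1509 higher and 926 to 2357 lower in MPPs.

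Genotype calls numbered 0 with fold enrichment, normal scores, summed peaks or members ranked alone, 1527 with only LT-HSC KO 4 and WT 2, 175 without LT-HSC KO 1 and KO 2 and 152 with members also ranked alone, and 0 to 1716 without single libraries. Within MPPs they numbered 41 with only LT-HSC KO 4 and WT 2, 2 without LT-HSC KO 1 and KO 2, and 0 to 2 without single libraries. Within LT-HSCs they numbered 101 with fold enrichment, 2 with members ranked alone, 1306 with list length as a covariate, 1593 with only LT-HSC KO 4 and WT 2, 474 without LT-HSC KO 1 and KO 2, 284 with members also ranked alone, and 0 to 3073 without single libraries. Interaction calls numbered 949 with only LT-HSC KO 4 and WT 2, 59 without LT-HSC KO 1 and KO 2, 57 with members also ranked alone, and 0 to 1964 without single libraries. These counts and the cell type counts in the paragraph above are of members alone, and the larger ones came with calls in other regions. With only LT-HSC KO 4 and WT 2, each LT-HSC group holds 1 library. Over both directions, members and all 13908 regions were then called in similar shares by cell type, by genotype, within LT-HSCs and for the interaction. Within LT-HSCs, the covariate fit called 881 members higher and 425 lower in KO, against 1353 and 1401 of all 13908 regions. Without LT-HSC KO 4 it was 1679 and 1394, against 3028 and 3425, and with fold enrichment 93 and 8, against 111 and 22. The interaction without LT-HSC KO 4 had 933 positive and 1031 negative members, against 2083 and 1886. The cause was not tested.

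With the replicate number as a replicate block, 3761 cell type calls (1393 higher in MPPs), 1167 genotype calls, 2366 within LT-HSCs and 1567 for the interaction were made. Of all 13908 regions, 3775 were then higher and 3463 lower in MPPs, and 1309 were higher and 1148 lower in KO. Within LT-HSCs 2370 were higher and 2490 lower in KO, and 1523 were positive and 1528 negative for the interaction. Same-numbered libraries did not deviate together (correlations of −0.0989 to 0.0428), so they share only a number. Of 306 values of the named regions under alternatives, 294 stayed on their side of the threshold; the Vav1 difference, 18.9 points, lost its call in 11 fits and was −4.17 with fold enrichment. With regions given to the nearest gene end, 6 of the 12 leading genes stayed; beyond 5 kb, 9 did. Depth is unknown, so weak regions may miss peaks in the shorter lists.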

Other observations

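Of the 16 members within 1 kb of a miRNA, 4 were called between cell types by limma over all shared regions, no larger a share than the 30.7% of all regions and 35.2% of members called in either direction. The member 566 bp from Mir6919, inside Mgat4b (a glycosyltransferase gene), averaged 27.8 in MPPs and 75.1 in LT-HSCs, with a fitted difference, which weights KO and WT equally, of −49.2 ± 9.48 points (SE, limma adjusted p = 0.00495). The members at Mir713 (−33.9 points, 23.1 in MPPs and 61.4 in LT-HSCs), Mir8096 (19.1 points, 61.4 in MPPs and 42.5 in LT-HSCs) and Mir1893 (30.3 points, 83.1 in MPPs and 48.7 in LT-HSCs) were the others. At Mir713 the LT-HSC level rested on KO 1 and KO 2, at 94.9 and 96.2, against 46.3 in LT-HSC KO 4 and 24.8 and 44.7 in LT-HSC WT.

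Neighbouring members of a gene could differ in direction. At Pik3r1, the regulatory subunit gene of PI3-kinase, the member at chr13:101663919-101664478 averaged 82.9 in MPPs and 51.8 in LT-HSCs, and the next one, chr13:101658996-101659485, averaged 69.2 in MPPs and 83.3 in LT-HSCs. Both were called, the first higher in MPPs and the second lower. At Cd28, a T cell co-stimulatory receptor gene, the member 43.2 kb outside the gene was higher in MPPs than in LT-HSCs by 20.5 points, and the member inside it lower by a difference of −59.4 points. Both of these were called as well (limma adjusted p = 0.0137 and 0.0017). The miRNAs, Pik3r1 and Cd28 were picked after their values were seen.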
